A study of Mus musculus with 27 samples.

Results

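The knockdown labelled NSL1 was set directly against the combined knockdown of MOF and MSL1 in mouse embryonic stem (ES) cells, over 12418 genes of the 19938 that had a probeset with a single gene symbol. Genes entered when their RMA value, a log2 expression value per probeset and array, averaged at least 6 over the 4 knockdown arrays of experiments D and E. Each gene was represented by its probeset with the highest mean over all 6 arrays of those experiments. The cells were PGK12.1, an XX line whose mother was of strain 129 and whose father was a (129 X PGK)F1, used between passages 14 and 18, grown with LIF and separated from feeder fibroblasts on gelatin. The NSL1 arrays (D and E) came from cells given 100 pmol of NSL1 siRNA for 48 h. The MOF+MSL1 arrays (D and E) came from cells given 100 pmol of Mof siRNA and 50 pmol of Msl1 siRNA for 48 h. The control arrays (D and E) came from cells given 100 pmol of a negative control siRNA for 48 h, and served only to show on which side of baseline a gene lay. The 3 arrays of a letter belong to 1 experiment, so differences were formed within letters. All of the groups are 1 line with transient knockdown, and the total siRNA dose of the double knockdown was higher. The full series has 27 arrays.

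MOF (gene symbol Kat8) is a MYST-family acetyltransferase that works in 2 complexes. In the MSL complex, scaffolded by MSL1, it acetylates histone H4 at lysine 16, the mark that in Drosophila accompanies dosage compensation of the male X chromosome. In the NSL complex, scaffolded by KANSL1 (also called NSL1), it is found at promoters of broadly expressed genes. The symbol Nsl1 itself belongs to a subunit of the MIS12 kinetochore complex, and the labels do not say which of these genes the NSL1 siRNA was designed against.

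Medians over all probesets lay between 6.39 and 6.44 in the 6 arrays. Arrays of a group correlated at 0.997 to 0.998 across tested probesets, NSL1 with MOF+MSL1 arrays at 0.988 to 0.991, NSL1 with control arrays at 0.983 to 0.987, and MOF+MSL1 with control arrays at 0.995 to 0.996. All 10 ES cell markers were measured, with Pou5f1, the pluripotency factor Oct4, at 12.41 and 12.38 in the NSL1 arrays, 12.48 and 12.49 in the MOF+MSL1 arrays and 12.54 and 12.48 in the control arrays, and 1 of them, Utf1, differed between the knockdowns (-0.25, adjusted p = 0.0159). Of 15 markers of feeder fibroblasts 8 were measured above the level filter. Their mean level was 6.77 and 6.85 in NSL1 arrays, 6.77 and 6.86 in MOF+MSL1 arrays and 6.79 and 6.90 in control arrays, and 1 of the 8, Thy1, differed between the knockdowns (-0.27, adjusted p = 0.0168). Postn, Lum, Dcn, Twist2, Prrx1 and S100a4 lay below the filter.

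The transcripts named in the labels come first. Kat8 (probeset 10557831, chromosome 7) stood at 9.55 and 9.49 in the NSL1 arrays, 8.62 and 8.55 in the MOF+MSL1 arrays and 9.45 and 9.47 in the control arrays. Msl1 (probeset 10381018, chromosome 11) stood at 9.57 and 9.71 in the NSL1 arrays, 8.67 and 8.79 in the MOF+MSL1 arrays and 9.16 and 9.21 in the control arrays. For both genes the MOF+MSL1 arrays lay below every other array, and the groups did not overlap. Kat8 was lower in MOF+MSL1 than in control by 0.87 on the log2 scale, which left 56.3% and 52.8% of the control level in D and E (limma, Benjamini-Hochberg adjusted p = 0.00653). Msl1 was at 71.2% and 74.8% of control there (adjusted p = 0.0146), while in NSL1 arrays it was at 133% and 142% (adjusted p = 0.00107). NSL1 minus MOF+MSL1 was 0.93 (SE 0.058, adjusted p = 0.000481) for Kat8 and 0.91 (SE 0.057, adjusted p = 0.000481) for Msl1. Without either MOF+MSL1 array the differences of Kat8 and Msl1 from control kept their size but did not pass the threshold.

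The probesets of Kansl1 (chromosome 11) disagreed. Probeset 10391990 read 9.68 and 9.84 in the NSL1 arrays, 10.06 and 10.16 in the MOF+MSL1 arrays and 9.99 and 9.95 in the control arrays, so the NSL1 arrays were the lowest and no group overlapped another there. It was lower in NSL1 than in MOF+MSL1 arrays by 0.35 (limma adjusted p = 0.00905) and lower than in control by 0.21 (adjusted p = 0.0408), which left 80.6% and 92.8% of control in D and E. The difference from MOF+MSL1 did not pass without the NSL1 D array (-0.28) or the MOF+MSL1 E array (-0.33), and the difference from control passed neither without the replicate block (-0.21) nor without any single array but control E. Probeset 10392010 read 8.71 and 8.83 in NSL1 arrays, 8.72 and 8.56 in MOF+MSL1 arrays and 8.30 and 8.08 in control arrays. Both knockdowns were above control on it (0.58, adjusted p = 0.00215, in NSL1, and 0.45, adjusted p = 0.0352, in MOF+MSL1, a call lost without MOF+MSL1 D, MOF+MSL1 E or control E), and the knockdowns did not differ by the test (0.13, adjusted p = 0.289). Nsl1 (probeset 10352709, chromosome 1) read 8.86 and 8.87 in the NSL1 arrays, 9.07 and 8.92 in the MOF+MSL1 arrays and 8.59 and 8.78 in the control arrays and passed no test (NSL1 minus MOF+MSL1 -0.13, adjusted p = 0.283). The arrays labelled NSL1 are named by that label throughout, since neither candidate gene settled it.

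**Figure D1:**
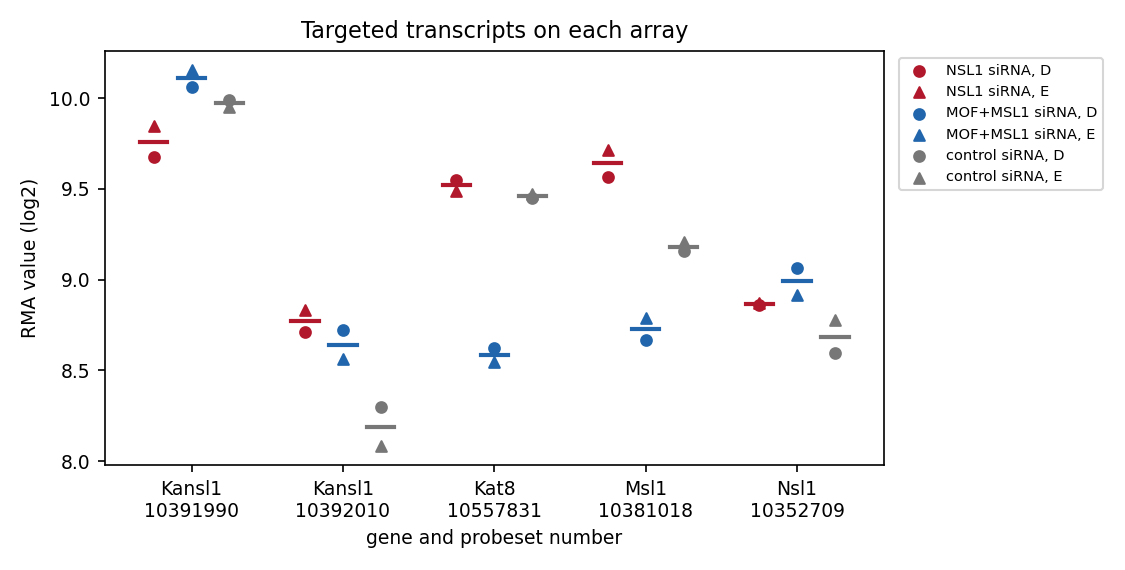
RMA values (log2, vertical axis) of the probesets of Kansl1, Kat8, Msl1 and Nsl1 on each array, with NSL1 arrays left, MOF+MSL1 arrays in the middle and control arrays right, circles for experiment D, triangles for E and bars for the mean of 2 arrays. Kat8 and Msl1 are lowest in the MOF+MSL1 arrays, and the 2 Kansl1 probesets place the NSL1 arrays in a different order.

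Between the knockdowns, 4164 of 12418 genes differed at an adjusted p under 0.05 (33.5%), 1739 higher (14%) and 2425 lower (19.5%) in NSL1 than in MOF+MSL1 arrays. All 4164 had the same sign in experiments D and E, which a call in the paired fit largely requires, so it adds no separate support. The differences were mostly small: 386 genes (3.11%) passed with a difference of at least 1.5-fold, 162 higher (1.3%) and 224 lower (1.8%). Removing an array changed the full count: 2729 genes passed without NSL1 D, 1916 without NSL1 E, 1987 without MOF+MSL1 D and 2594 without MOF+MSL1 E. The count at 1.5-fold held between 386 and 493 over the same removals. The median difference over all genes was -0.0192, and 238 genes reached the level filter in the mean of 1 knockdown group but not of the other.

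**Figure D2:**
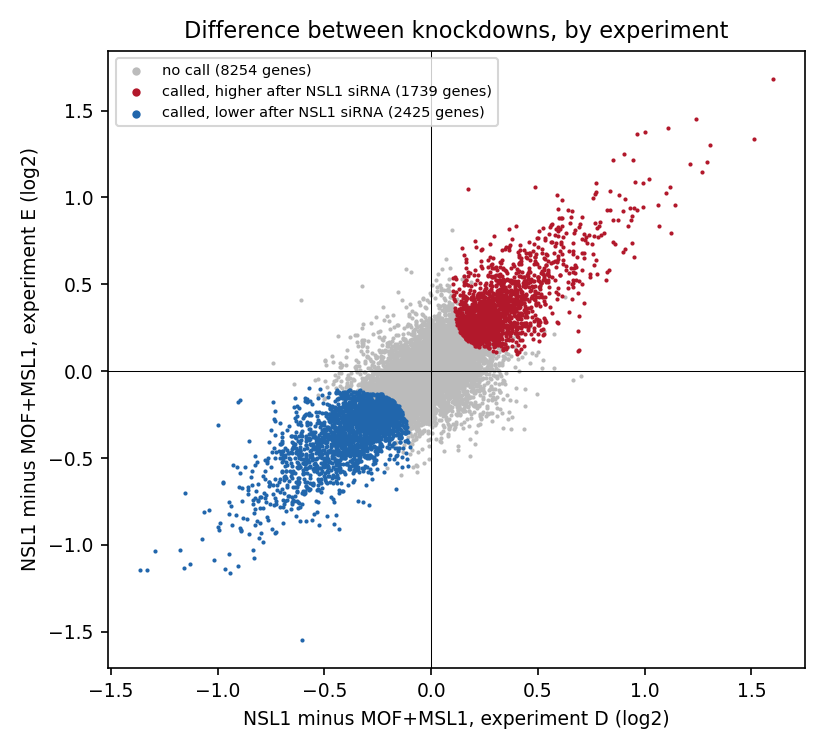
NSL1 minus MOF+MSL1 (log2) in experiment D (horizontal) against experiment E (vertical), 1 point per gene, for 1739 genes called higher, 2425 called lower and 8254 not called. Every called gene lies in a quadrant where both experiments have the same sign, as a call largely requires.

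From baseline, the NSL1 arrays moved further. NSL1 differed from control in 5412 genes (43.6%), 2508 higher (20.2%) and 2904 lower (23.4%), and in 856 (6.89%) by at least 1.5-fold, 312 higher (2.51%) and 544 lower (4.38%). MOF+MSL1 differed from control in 834 genes (6.72%), 414 higher (3.33%) and 420 lower (3.38%), and in 47 (0.378%) by at least 1.5-fold, 28 higher (0.225%) and 19 lower (0.153%). The second of these counts was fragile: it was 391 without the replicate block, 278 and 250 without the control D or control E array, and 0 without either MOF+MSL1 array, where 2431 and 2432 genes had an unadjusted p under 0.05 (limma). The NSL1 count was 3361 without NSL1 E. Both comparisons use the same 2 control arrays, so the place of a gene in the pair is a description only. In MOF+MSL1 arrays Kat8 and Msl1 stood at -0.87 and -0.45 from control, nearer to it than in the single knockdowns given under other observations. The part of knockdown depth in these counts was not tested. Of the 4164 genes that differed between knockdowns, 3044 (73.1%) were called against control in NSL1 and not in MOF+MSL1, 111 in MOF+MSL1 and not in NSL1, 323 in both on the same side of control, 26 in both on opposite sides, and 660 in neither. Among the 3044, the estimate in MOF+MSL1 had the sign of the NSL1 change in 2099 genes, and a missing call there does not show that a gene was level.

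The largest positive difference between NSL1 and MOF+MSL1 was that of Irgm1, an interferon-inducible GTPase. It read 8.34 and 8.19 in the NSL1 arrays, 6.74 and 6.51 in the MOF+MSL1 arrays and 7.22 and 7.08 in the control arrays, so NSL1 arrays were above and MOF+MSL1 arrays below control, with no overlap between any of the groups. The difference between knockdowns was 1.64 (SE 0.057, adjusted p = 0.000226) by limma. Gpnmb, a glycoprotein of lysosomes and melanosomes, read 9.27 and 9.23 in the NSL1 arrays, 7.75 and 7.89 in the MOF+MSL1 arrays and 7.90 and 7.85 in the control arrays. Here the MOF+MSL1 and control arrays overlapped and the NSL1 arrays stood apart, with a difference of 1.43 (SE 0.068, adjusted p = 0.000407). Naaa, a lysosomal amidase, read 10.08 and 10.08 in the NSL1 arrays, 8.77 and 8.78 in the MOF+MSL1 arrays and 9.16 and 9.12 in the control arrays, and Fstl1, a secreted follistatin-like protein, read 10.38 and 10.27 in the NSL1 arrays, 9.16 and 9.08 in the MOF+MSL1 arrays and 9.65 and 9.63 in the control arrays. Both followed the order seen for Irgm1, NSL1 highest and MOF+MSL1 lowest, with differences of 1.31 (SE 0.056, adjusted p = 0.000407) and 1.20 (SE 0.057, adjusted p = 0.000407).

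Foxd1, a forkhead transcription factor, read 7.69 and 7.74 in the NSL1 arrays, 6.40 and 6.53 in the MOF+MSL1 arrays and 6.22 and 6.17 in the control arrays, a difference of 1.25 (SE 0.064, adjusted p = 0.000407) with both knockdowns at or above control. Dtna, the dystrophin-associated protein alpha-dystrobrevin, read 7.25 and 7.37 after NSL1 siRNA, against 6.00 and 5.92 after MOF+MSL1 siRNA, with a difference of 1.35 (SE 0.067, adjusted p = 0.000407). Foxd1 was near the level filter in MOF+MSL1 and control arrays. Dtna averaged 7.31 in NSL1, 5.96 in MOF+MSL1 and 6.05 in control arrays, so of the knockdowns only NSL1 carried it past the filter. Pla2g7 (platelet-activating factor acetylhydrolase), Hsd17b2 (a steroid dehydrogenase) and Ccdc141 (a coiled-coil protein) differed by 1.26, 1.21 and 1.19, with adjusted p of 0.000625, 0.000407 and 0.00066. Gpr50 (an orphan receptor related to melatonin receptors), Anxa1 (annexin A1) and Slc27a2 (an acyl-CoA synthetase for very long chain fatty acids) differed by 1.17, 1.09 and 1.08, with adjusted p of 0.000756, 0.000481 and 0.00051. Gpr50 averaged 6.92 in NSL1, 5.75 in MOF+MSL1 and 5.80 in control arrays, so it passed the level filter only through the NSL1 arrays. These 12 genes were picked for their large difference, so that both NSL1 arrays were above both MOF+MSL1 arrays follows from the choice. All 12 rose in NSL1 against control, by 0.68 to 1.52, a comparison that uses the same NSL1 arrays.

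The genes most lowered in NSL1 included enzymes and organelle proteins. Tbc1d7, a subunit of the TSC complex that restrains mTORC1, read 6.85 and 6.61 in the NSL1 arrays, 8.18 and 7.75 in the MOF+MSL1 arrays and 8.33 and 8.30 in the control arrays. The NSL1 arrays were the lowest and did not overlap the others, and the difference was -1.24 (SE 0.093, adjusted p = 0.000547) by limma. Pcbd1, a dehydratase that recycles tetrahydrobiopterin, read 7.31 and 7.25 in the NSL1 arrays, 8.46 and 8.38 in the MOF+MSL1 arrays and 8.90 and 8.69 in the control arrays, a difference of -1.14 (SE 0.063, adjusted p = 0.000481). MOF+MSL1 arrays were also under control for Pcbd1 (-0.37, adjusted p = 0.0262), and no groups overlapped. Ctsz, the lysosomal protease cathepsin Z, read 8.31 and 8.20 in the NSL1 arrays, 9.33 and 9.29 in the MOF+MSL1 arrays and 9.49 and 9.68 in the control arrays, and its difference was -1.05 (SE 0.082, adjusted p = 0.000625). It lay in the order NSL1, MOF+MSL1, control, although its change in MOF+MSL1 did not pass (adjusted p = 0.0909).

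Tmem102, a transmembrane protein, read 6.82 and 6.99 after NSL1 siRNA, against 8.11 and 8.02 after MOF+MSL1 siRNA, with control at 8.08 and 8.09 and a difference of -1.16 (SE 0.073, adjusted p = 0.000481). Cyp4f16, a cytochrome P450, and Pxmp4, a peroxisomal membrane protein, differed by -1.12 (SE 0.058, adjusted p = 0.000407) and -1.02 (SE 0.06, adjusted p = 0.000481). Obox6, an oocyte-type homeobox gene, Ano9, an anoctamin, Morn4, a MORN-repeat protein, and Zc4h2, an X-linked zinc-finger gene, differed by -1.10, -1.05, -1.05 and -1.01. For these 4 genes the MOF+MSL1 arrays were also called lower than control, by -0.53, -0.50, -0.34 and -0.51, against -1.63, -1.56, -1.40 and -1.52 in NSL1. The remaining pair is less certain. Gm7982 (-1.25, adjusted p = 0.00051) is represented by several probesets, some with identical values, so its copies cannot be told apart. AY036118 (-1.07, adjusted p = 0.00914) read 9.81 and 9.31 in the NSL1 arrays, 10.41 and 10.85 in the MOF+MSL1 arrays and 10.21 and 10.60 in the control arrays, a wide spread between experiments, and its difference did not pass without the MOF+MSL1 E array (-0.825).

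**Figure D3:**
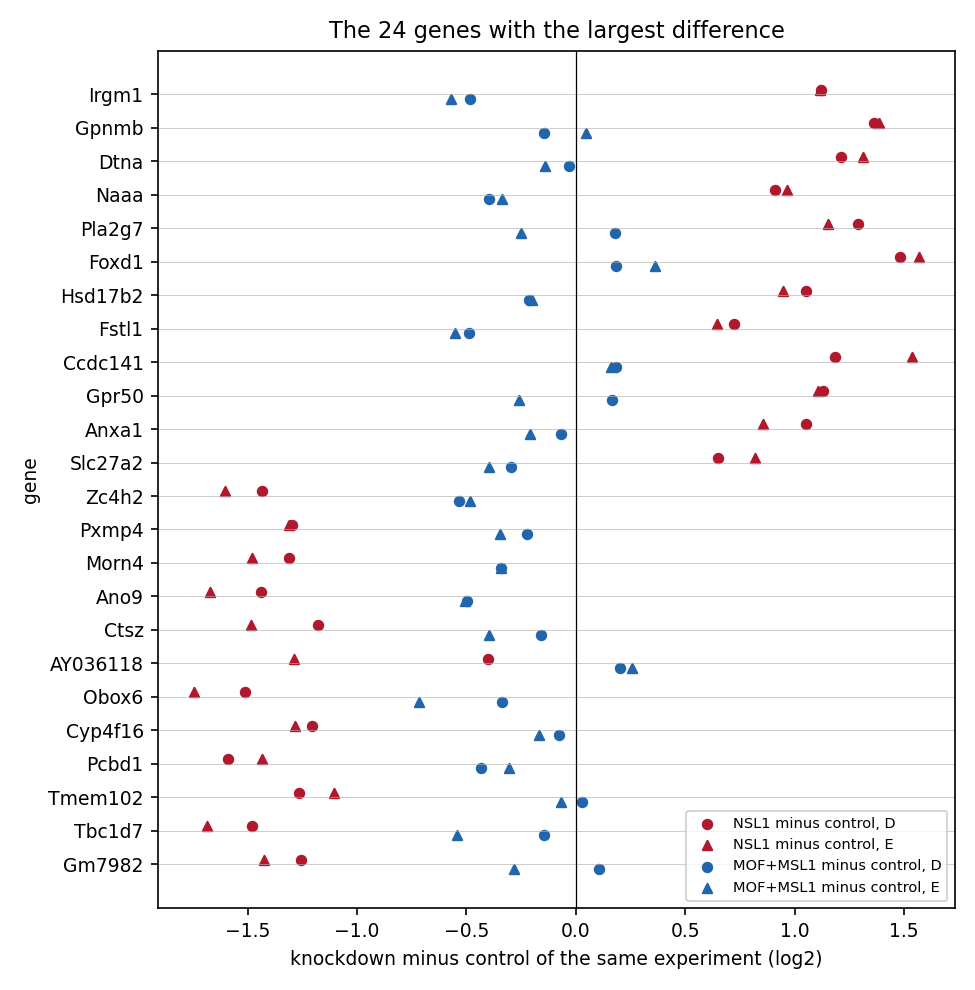
Each knockdown minus the control array of its own experiment (log2, horizontal), for the 12 genes with the largest positive and the 12 with the largest negative NSL1 minus MOF+MSL1 difference (vertical), NSL1 in red, MOF+MSL1 in blue, circles for D and triangles for E. Irgm1, Naaa, Fstl1 and Slc27a2 have NSL1 points right and MOF+MSL1 points left of 0, while most of the lowered genes have both left of 0 or the blue points near 0.

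Genes on opposite sides of control in the 2 knockdowns numbered 26, 18 higher and 8 lower in NSL1. Besides Irgm1, Naaa, Fstl1 and Slc27a2, the most different of the 18 was Adgrl2, an adhesion receptor of the latrophilin family, at 8.97 and 9.05 in the NSL1 arrays, 8.06 and 8.06 in the MOF+MSL1 arrays and 8.33 and 8.43 in the control arrays. Its difference was 0.95 (SE 0.058, adjusted p = 0.000481), and 4 further probesets of the gene differed by 0.72 to 1.25. On the other side, Hesx1, a homeobox repressor of forebrain and pituitary development, read 7.12 and 6.89 in the NSL1 arrays, 7.97 and 7.83 in the MOF+MSL1 arrays and 7.62 and 7.49 in the control arrays. The order was reversed there, with NSL1 lowest and MOF+MSL1 highest, and the difference was -0.90 (SE 0.058, adjusted p = 0.000503). Bloc1s3, a subunit of the BLOC-1 complex of lysosome-related organelles, differed by -0.71 (SE 0.058, adjusted p = 0.00066), Ndufa4l2 by -0.70, the protease Capn5 by -0.65 and the actin-binding calponin Cnn2 by -0.59. Since no gene passed for MOF+MSL1 against control once a MOF+MSL1 array was removed, membership in this set rests on both of those arrays.

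A smaller set of 111 genes was called in MOF+MSL1 against control and not in NSL1. Beside Kat8 it held Ucma, a secreted cartilage matrix protein, at 9.05 and 8.997 in the NSL1 arrays, 8.15 and 8.29 in the MOF+MSL1 arrays and 8.88 and 8.89 in the control arrays, where the NSL1 arrays were close to control and the difference was 0.81 (SE 0.067, adjusted p = 0.000673). Dnajc6, the uncoating co-chaperone auxilin, read 9.50 and 9.53 in the NSL1 arrays, 8.95 and 9.01 in the MOF+MSL1 arrays and 9.54 and 9.46 in the control arrays, with a difference of 0.53 (SE 0.06, adjusted p = 0.0015). Zfp36l3, an X-linked zinc-finger gene, differed by 0.48, and the zinc-finger gene Zfp931 by 0.49, a call that did not pass without the replicate block (adjusted p = 0.165). In the lower direction Cwh43 read 6.47 and 6.35 in the NSL1 arrays, 7.09 and 7.10 in the MOF+MSL1 arrays and 6.58 and 6.55 in the control arrays, a gain in MOF+MSL1 arrays that left the NSL1 arrays -0.69 below them. Acp7 (an acid phosphatase), Ifi30 (a lysosomal thiol reductase), Eras (an X-linked Ras protein of ES cells) and Hoxc5 (a homeobox gene) differed by -0.66, -0.55, -0.55 and -0.50. Membership in this set also rests on both MOF+MSL1 arrays.

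Other genes were called against control in both knockdowns with no call between them. The examples that follow were chosen after their values were seen. Dglucy, a mitochondrial D-glutamate cyclase, read 9.05 and 9.04 in the NSL1 arrays, 8.98 and 8.92 in the MOF+MSL1 arrays and 8.16 and 8.15 in the control arrays. Both knockdowns stood far above control and 0.10 apart (95% interval -0.03 to 0.23, adjusted p = 0.221). Slc5a11, a sodium-coupled inositol transporter, and Ddit4, an inhibitor of mTORC1, likewise differed between knockdowns by 0.11 (95% interval -0.02 to 0.25) and -0.05 (95% interval -0.18 to 0.08). Clip3 read 6.70 and 6.68 in the NSL1 arrays, 6.79 and 6.94 in the MOF+MSL1 arrays and 7.58 and 7.57 in the control arrays, lower than control in both, and the knockdowns lay -0.17 apart (95% interval -0.33 to -0.02). The lysosomal protease Lgmn was -0.72 and -0.64 from control in NSL1 and MOF+MSL1, with -0.08 between them (95% interval -0.22 to 0.06). Of 332 genes with this pattern, 331 had a 95% interval within 0.58 of 0. No call between the knockdowns was part of the choice, so this count does not measure how alike they are. The bound is also wide, since 47 of the 834 genes called in MOF+MSL1 against control changed by at least 1.5-fold.

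The MOF complexes are given member by member, since their lists are short and 33.5% of all genes were called. In the MSL complex all 4 members were called: besides Kat8 and Msl1, the chromodomain subunit Msl3 (X chromosome) was lower in NSL1, at 8.57 and 8.47 after NSL1 siRNA, against 8.94 and 8.87 after MOF+MSL1 siRNA (-0.38 (SE 0.058, adjusted p = 0.00408)), and the ubiquitin ligase subunit Msl2 was higher, at 11.66 and 11.81 after NSL1 siRNA, against 11.40 and 11.51 after MOF+MSL1 siRNA (0.28 (SE 0.061, adjusted p = 0.015)). Neither Msl3 nor Msl2 was called in MOF+MSL1 against control. Of 9 NSL complex members 1 was higher (Kat8) and 2 were lower, 33.3% and so at the background, Kansl1 on the probeset given above and Mcrs1, a shared microspherule protein, at 10.49 and 10.45 after NSL1 siRNA, against 10.74 and 10.72 after MOF+MSL1 siRNA (-0.26 (SE 0.055, adjusted p = 0.0128)). The 6 others did not pass, among them the glycosyltransferase Ogt (0.17, adjusted p = 0.0513) and the coregulator Hcfc1 (0.08, adjusted p = 0.332). Of 9 other MYST acetyltransferases and deacetylases of the same residue, Sirt2 (-0.70 (SE 0.069, adjusted p = 0.000995)), Hdac3 (-0.36 (SE 0.064, adjusted p = 0.00651)) and Kat5 (-0.31 (SE 0.062, adjusted p = 0.0102)) were lower, while Kat6a (0.28) and Sirt1 (0.23) were higher. Sirt2, a deacetylase of H4 lysine 16, read 8.83 and 8.64 in the NSL1 arrays, 9.47 and 9.38 in the MOF+MSL1 arrays and 9.61 and 9.65 in the control arrays, and NSL1 arrays did not overlap the rest. No NSL complex gene was called lower without NSL1 D or MOF+MSL1 E, and neither Kat6a nor Sirt1 was called without NSL1 E or MOF+MSL1 E. Of the 3 lower ones 1 was called without NSL1 E. Of 9 kinetochore genes of the MIS12 and NDC80 complexes, which include Nsl1, Knl1 was higher (0.19, adjusted p = 0.0375) and Spc24 lower (-0.27, adjusted p = 0.038), both calls lost with no replicate block.

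In the cilium lists most tested genes were called lower in NSL1. Of 36 genes of intraflagellar transport and the BBSome, the machinery that carries cargo along the axoneme, 31 were tested, and 18 were lower and 1 higher in NSL1 than in MOF+MSL1, against 19.5% lower and 14% higher over all genes. Their median difference was -0.294, against -0.0192 over all genes. From control, the medians were -0.433 in NSL1 (1 higher, 25 lower) and -0.149 in MOF+MSL1 (4 lower). Over all genes 20.2% were higher and 23.4% lower than control in NSL1, and 3.33% and 3.38% in MOF+MSL1. Of 24 genes of the transition zone and basal body, 20 were tested, with 13 lower and 1 higher and a median of -0.277. Without 1 of the 4 knockdown arrays 12 to 15 intraflagellar transport genes were called lower, and 8 transition zone genes without MOF+MSL1 E.

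Bbs9, a BBSome subunit, read 8.36 and 8.33 in the NSL1 arrays, 9.27 and 9.16 in the MOF+MSL1 arrays and 9.46 and 9.49 in the control arrays, with NSL1 more than 0.8 below all other arrays and a difference of -0.87 (SE 0.061, adjusted p = 0.00051). Ift22, a small GTPase of the IFT-B complex, read 7.51 and 7.49 in the NSL1 arrays, 8.49 and 8.36 in the MOF+MSL1 arrays and 8.45 and 8.70 in the control arrays and differed by -0.93 (SE 0.092, adjusted p = 0.000972). In both genes the MOF+MSL1 change from control did not pass. Ift172 (-0.64 (SE 0.067, adjusted p = 0.00113)), another IFT-B subunit, and Bbs5 (-0.63 (SE 0.072, adjusted p = 0.00152)) of the BBSome followed. Wdr35, an IFT-A subunit, was higher in NSL1 (0.40 (SE 0.058, adjusted p = 0.00344)), and neither Ift20 (0.19, adjusted p = 0.0737) nor the kinesin adaptor Kifap3 (-0.09, adjusted p = 0.363) passed. In the transition zone list Rpgr, the X-linked retinitis pigmentosa GTPase regulator, read 7.40 and 7.28 in the NSL1 arrays, 8.05 and 8.03 in the MOF+MSL1 arrays and 8.30 and 8.14 in the control arrays and differed by -0.70 (SE 0.061, adjusted p = 0.000756). Mks1, a Meckel syndrome gene, read 8.08 and 7.99 in the NSL1 arrays, 8.58 and 8.58 in the MOF+MSL1 arrays and 8.45 and 8.46 in the control arrays (-0.54 (SE 0.058, adjusted p = 0.00124)), and the MOF+MSL1 arrays were here above control, though not by the test. Tctn2 differed by -0.54 and B9d1 by -0.35, while Cetn3 (-0.09, adjusted p = 0.263) and Ofd1 (0.13, adjusted p = 0.156) did not pass.

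Calls among mitochondrial ribosomal and respiratory genes were all in the lower direction. Of 78 mitochondrial ribosomal proteins 77 were tested, and 43 were lower and 0 higher in NSL1 (limma, adjusted p under 0.05), against 19.5% lower and 14% higher over all genes, with a median of -0.240 and a range from -0.731 to 0.175. The median was -0.192 in NSL1 against control (37 lower, 2 higher) and 0.0126 in MOF+MSL1 against control (1 higher). The shares against control over all genes were 23.4% lower and 20.2% higher in NSL1, and 3.38% and 3.33% in MOF+MSL1. Mrpl11 read 10.15 and 10.07 in the NSL1 arrays, 10.80 and 10.68 in the MOF+MSL1 arrays and 10.87 and 10.85 in the control arrays and differed by -0.63 (SE 0.057, adjusted p = 0.000756). Mrpl46 read 8.73 and 8.51 in the NSL1 arrays, 9.28 and 9.16 in the MOF+MSL1 arrays and 9.27 and 9.25 in the control arrays (-0.60 (SE 0.067, adjusted p = 0.00132)), and in both genes the MOF+MSL1 and control arrays were close together. Mrpl30 and Mrps17 differed by -0.55 and -0.57, and of members that did not pass Mrps18b and Mrpl39 had the highest levels (-0.02, adjusted p = 0.821; -0.12, adjusted p = 0.132). The lower count fell to 29 without NSL1 D, 24 without NSL1 E, 22 without MOF+MSL1 D and 35 without MOF+MSL1 E.

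Of 46 tested subunits and assembly factors of respiratory complex I, 16 were lower and 0 higher, with a median of -0.133. The share called, 34.8%, was near the 33.5% over all genes, as was the 30.2% of complexes II to V. All calls in both lists were lower, however, against 19.5% lower and 14% higher over all genes. Ecsit, an assembly factor, read 7.89 and 7.71 after NSL1 siRNA, against 8.48 and 8.40 after MOF+MSL1 siRNA (-0.64 (SE 0.069, adjusted p = 0.00127)), and the subunits Ndufs5, Ndufa9 and Ndufv1 differed by -0.49, -0.52 and -0.46. Of 43 genes of complexes II to V, 13 were lower and 0 higher, with a median of -0.104. Cox15, which makes heme A for cytochrome oxidase, differed by -0.50 (SE 0.059, adjusted p = 0.00176), the assembly factors Surf1 and Bcs1l by -0.36 and -0.53, and Uqcr10 of complex III by -0.41. The ATP synthase subunit Atp5b (-0.05, adjusted p = 0.578) did not pass. Of 34 tRNA synthetases, which charge tRNAs in cytoplasm or mitochondria, 15 were lower and 2 higher (50% called), with a median of -0.149: Hars2 -0.40, Fars2 -0.41, Wars -0.41 and Mars1 -0.36, all called. These counts also depended on single arrays: over the removal of NSL1 D, NSL1 E, MOF+MSL1 D and MOF+MSL1 E the lower counts were 12, 6, 5 and 9 for complex I, 6, 4, 4 and 6 for complexes II to V, and 7, 6, 7 and 8 for the synthetases.

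Cholesterol synthesis split by enzyme. Of 20 genes 17 were tested, with 9 lower and 2 higher in NSL1, against 19.5% and 14% over all genes, and a median of -0.262, and the medians from control were -0.334 in NSL1 and -0.0547 in MOF+MSL1. Pmvk, phosphomevalonate kinase, read 7.13 and 7.07 in the NSL1 arrays, 7.93 and 7.79 in the MOF+MSL1 arrays and 7.77 and 7.75 in the control arrays and differed by -0.76 (SE 0.059, adjusted p = 0.000625). Lss, lanosterol synthase (-0.48 (SE 0.059, adjusted p = 0.00188)), Fdps, farnesyl diphosphate synthase (-0.38 (SE 0.057, adjusted p = 0.00377)), and Dhcr7, the last reductase of the pathway (-0.40 (SE 0.063, adjusted p = 0.00441)), were also lower. Cyp51 (0.37, adjusted p = 0.00996) and Idi1 (0.27, adjusted p = 0.0181) were higher, and the abundant Fdft1 (0.00, adjusted p = 0.965) and Msmo1 (0.09, adjusted p = 0.271) did not pass. The lower count was 8, 5, 4 and 9 without NSL1 D, NSL1 E, MOF+MSL1 D and MOF+MSL1 E.

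Growth control and degradation lists were called at 37.9% (TSC and mTORC1), 33.3% (lysosome) and 23.3% (autophagy), near or below the 33.5% over all genes, so only single genes are described. Of 29 genes of TSC and mTORC1 signalling 4 were higher and 7 lower, with a median of -0.0214, and 3 were lower without NSL1 D and 4 without MOF+MSL1 D. Beside Tbc1d7, Nprl2, a subunit of the GATOR1 complex, was lower, at 8.12 and 8.05 after NSL1 siRNA, against 8.77 and 8.63 after MOF+MSL1 siRNA (-0.62 (SE 0.066, adjusted p = 0.00119)). Sesn3 (a sestrin, 0.47 (SE 0.056, adjusted p = 0.00178)) and Rragd (a Rag GTPase, 0.42 (SE 0.061, adjusted p = 0.00334)) were higher. Of 21 lysosomal genes 2 were higher and 5 lower, and 3 were lower without NSL1 D, NSL1 E or MOF+MSL1 D. Siae, sialic acid acetylesterase, read 7.13 and 7.11 in the NSL1 arrays, 8.13 and 8.01 in the MOF+MSL1 arrays and 8.56 and 8.57 in the control arrays, a stepwise order with a difference of -0.95 (SE 0.06, adjusted p = 0.000481), and Smpd1, acid sphingomyelinase, differed by -0.46. Of 30 autophagy genes 1 was higher and 6 were lower, among them Atg7, the E1-like enzyme of the pathway, at 7.97 and 7.99 in the NSL1 arrays, 8.75 and 8.69 in the MOF+MSL1 arrays and 8.75 and 8.64 in the control arrays (-0.74 (SE 0.06, adjusted p = 0.00066)), and the X-linked protease Atg4a (-0.93 (SE 0.1, adjusted p = 0.00128)). Atg7 was at control level in MOF+MSL1 arrays (0.02, adjusted p = 0.881). Atg101 and Atg9a differed by -0.50 and -0.51, and the abundant Map1lc3b (-0.16, adjusted p = 0.101) did not pass.

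Among lists with at least 9 tested members, targets of p53 had the highest share of genes higher in NSL1. Of 25 genes 21 were tested, and 11 were higher and 0 lower, against 14% and 19.5% over all genes, with a median of 0.208. From control, 18 were higher in NSL1 (median 0.391, against 20.2% higher over all genes) and 9 in MOF+MSL1 (median 0.230, against 3.33%), with none lower in either. Plk2, a polo-like kinase, read 10.08 and 10.05 in the NSL1 arrays, 9.59 and 9.41 in the MOF+MSL1 arrays and 8.79 and 8.65 in the control arrays, with no overlap between groups and a difference of 0.56 (SE 0.062, adjusted p = 0.00132). Btg2, an antiproliferative gene, read 10.39 and 10.32 in the NSL1 arrays, 9.87 and 9.89 in the MOF+MSL1 arrays and 9.57 and 9.50 in the control arrays (0.47 (SE 0.058, adjusted p = 0.00184)). Perp (0.40 (SE 0.061, adjusted p = 0.00383)) and Pidd1 (0.32 (SE 0.055, adjusted p = 0.00619)), both of p53-dependent cell death, followed, and Ei24 (0.04, adjusted p = 0.623) and Gtse1 (0.13, adjusted p = 0.11) did not pass. Ddit4 and Sesn2, stress-induced inhibitors of mTORC1 named after their values were seen, stood 0.60 and 0.38 above control in NSL1 and 0.65 and 0.38 in MOF+MSL1. The count between knockdowns was 5 without NSL1 D, NSL1 E, MOF+MSL1 D or MOF+MSL1 E, and also 5 with no level filter.

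**Figure D4:**
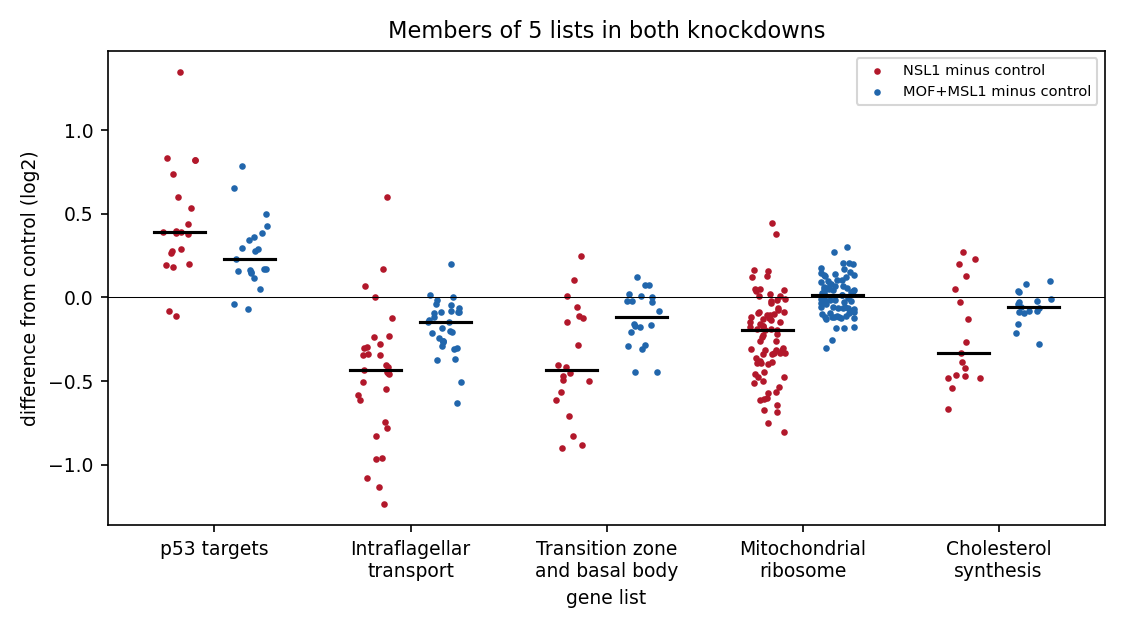
Difference from control (log2, vertical) of the tested members of 5 gene lists (horizontal), NSL1 in red on the left and MOF+MSL1 in blue on the right of each pair, 1 point per gene and a bar at the median. The p53 targets lie above 0 on both sides with medians of 0.391 and 0.230, and the mitochondrial ribosome has medians of -0.192 and 0.0126.

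Stress, metabolic and proliferation lists followed. Of 21 ATF4 and unfolded protein response genes 3 were higher and 7 lower: Chac1 (-0.58), Trib3 (-0.38) and Nupr1 (-0.46) were lower, and the chaperone Dnajb9 (0.48) was higher. Of 36 glutathione and redox genes 5 were higher and 8 lower, with the quinone reductase Nqo1 (0.48) and the peroxidase Gpx3 (0.48) higher and Gstm5 (-0.68, at a mean of 5.66 in NSL1 arrays) and Mgst3 (-0.39) lower. Of 18 glycolysis and hypoxia genes 6 were lower and 0 higher, all by at most 0.31, with Bnip3 (-0.31), Egln1 (-0.26), Pfkl (-0.28) and Hk2 (-0.21) first. No glycolysis gene passed without NSL1 E, MOF+MSL1 D or MOF+MSL1 E. Of 22 licensing genes 4 were lower, led by Gins1 (-0.50, adjusted p = 0.0022), of 19 mitotic genes 3 were lower (Cdc20 -0.28, Birc5 -0.27, Aurka -0.27), and of 14 replication-dependent histone genes H4c8 was lower (-0.25, adjusted p = 0.0306). Of 48 repair genes 4 were higher and 11 lower, the lower ones including the glycosylase Ung (-0.42) and the excision repair genes Ercc1 (-0.55) and Xpa (-0.48). The shares called in these lists lay between 7.14% and 47.6%, against 33.5% over all genes (19.5% lower and 14% higher). The loss of 1 array moved most of the counts.

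Pluripotency lists are to be read against the 33.5% called over all genes. Of 27 naive pluripotency genes 1 was higher and 4 lower (18.5% called), and 1 was lower without MOF+MSL1 D, while Nanog (0.02, adjusted p = 0.797) and Dppa5a (-0.03, adjusted p = 0.723) did not pass. Dppa3, a maternal factor also called Stella, read 7.98 and 8.23 in the NSL1 arrays, 8.68 and 8.64 in the MOF+MSL1 arrays and 8.41 and 8.26 in the control arrays. The NSL1 arrays were the lowest and the MOF+MSL1 arrays the highest, with a difference of -0.56 (SE 0.095, adjusted p = 0.00608), while neither knockdown passed against control. Socs3, the feedback inhibitor of LIF signalling, was lower (-0.38, adjusted p = 0.00706) and Nr0b1, an X-linked nuclear receptor, was higher (0.30, adjusted p = 0.00869). Of 13 genes of primed epiblast and Nodal signalling 4 were higher and 1 was lower (38.5% called), and 2 were higher without NSL1 E, MOF+MSL1 D or MOF+MSL1 E. Otx2, a homeobox factor of primed cells, read 9.003 and 9.08 in the NSL1 arrays, 9.45 and 9.52 in the MOF+MSL1 arrays and 8.94 and 8.88 in the control arrays, so MOF+MSL1 arrays were above the rest, with a difference of -0.44 (SE 0.061, adjusted p = 0.00285). Eomes (0.46 (SE 0.068, adjusted p = 0.00361)) and the Nodal inhibitor Lefty1 (0.36 (SE 0.057, adjusted p = 0.00422)) were higher in NSL1, and Lefty1 was lower than control in MOF+MSL1 (-0.33, adjusted p = 0.0266).

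Genes of other lineages gave few calls per list, to be read against 14% higher and 19.5% lower over all genes. Of 12 trophectoderm and keratin genes 3 were higher and 3 lower, with Tfap2c (-0.43) and Krt8 (-0.64) lower and Ascl2 (0.43) higher, and Cdx2 did not pass (-0.05, adjusted p = 0.665). Of 11 primitive endoderm genes Dab2 (0.51), Lamb1 (0.36) and Lamc1 (0.26) were higher and Hnf4a (-0.30) was lower, while Sparc did not pass (-0.01, adjusted p = 0.894). Of 11 neural genes 4 were called higher: Nexmif, Gria3, Neurod1 and Map2. Gria3 and Neurod1 averaged 6.85 and 6.93 in NSL1, 5.95 and 6.25 in MOF+MSL1 and 5.39 and 5.48 in control arrays. Gria3 passed the filter only with the NSL1 arrays, and Neurod1 was near the filter in the MOF+MSL1 arrays. Pax6, Dcx, Syt1, Snap25, Rbfox3 and Neurog2 lay below the filter. The neural count is therefore no result about the list. Neurod1, a proneural factor, read 6.81 and 7.06 in the NSL1 arrays, 6.09 and 6.41 in the MOF+MSL1 arrays and 5.55 and 5.400 in the control arrays, a stepwise order with a difference of 0.68 (SE 0.11, adjusted p = 0.00478). Of 7 genes typical of leukocytes or pigment cells Gpnmb, Btla, Lcp1 and Spi1 were higher, the actin bundler Lcp1 at 7.88 and 7.68 in the NSL1 arrays, 7.16 and 7.00 in the MOF+MSL1 arrays and 6.26 and 6.30 in the control arrays (0.70 (SE 0.072, adjusted p = 0.00109)). The leukocyte genes Ptprc, Cd53, Coro1a and Itgb2 lay below the level filter. Of 19 actin-linked targets of SRF and YAP 6 were higher and 3 lower, with the secreted matricellular gene Ccn2 (0.51) higher and Cnn2 and the lamin Lmna (-0.59) lower. Of 7 class I antigen presentation genes B2m (0.39), H2-M5 (0.23) and Tap1 (0.38) were higher, and of 3 genes of the 2-cell-like state Usp17lb (-0.86) and Zfp352 (-0.42) were lower. The counts here are small and most moved by 1 or 2 genes with the removal of an array. In bulk samples, fewer cells of a type and less RNA per cell cannot be told apart.

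**Figure D5:**
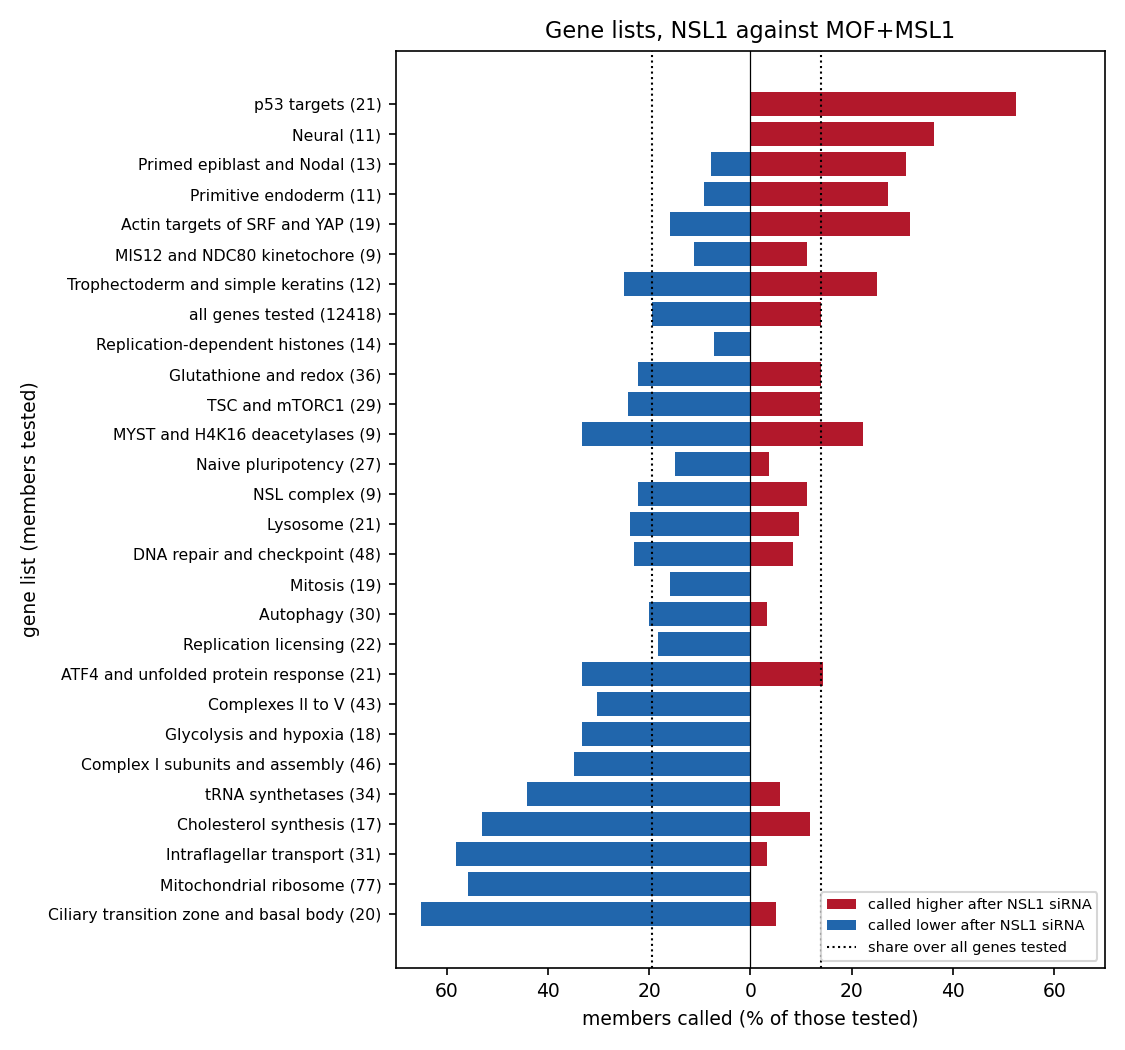
Members called lower (blue, left) and higher (red, right) in NSL1 than in MOF+MSL1 as a percentage of those tested (horizontal), for gene lists with at least 9 tested members (number in brackets, vertical), with dotted lines at the shares over all 12418 genes, 19.5% and 14%. The cilium, mitochondrial ribosome and cholesterol lists exceed the lower line and the p53 targets exceed the higher line by the widest margins.

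X-linked genes leaned towards higher values in NSL1 than in MOF+MSL1. Of 403 tested, 96 (23.8%) were higher and 59 (14.6%) lower than in MOF+MSL1, while of 11977 autosomal genes 1636 (13.7%) were higher and 2364 (19.7%) lower. The median difference was 0.0419 for X-linked and -0.0208 for autosomal genes, a gap of 0.0627 that was 0.0653 in experiment D and 0.0734 in E. Against control, 105 X-linked genes were higher and 91 lower in NSL1 (median 0.0151), and 7 were higher and 37 lower in MOF+MSL1 (median -0.0397). Of the autosomal genes 2395 were higher and 2811 lower in NSL1 (median -0.0108). In MOF+MSL1 406 autosomal genes were higher and 382 lower (median 0.00576). Thus the X-linked median lay above the autosomal one in NSL1 and below it in MOF+MSL1. The gap of 0.0627 between the knockdowns is small beside the differences of single genes. Without an array it lay between 0.0503 and 0.087, and with no level filter it was 0.0379.

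Among single X-linked genes Atp7a, a copper transporter, read 9.95 and 10.05 in the NSL1 arrays, 9.07 and 9.04 in the MOF+MSL1 arrays and 9.21 and 9.12 in the control arrays, and differed by 0.95 (SE 0.066, adjusted p = 0.00051). Nexmif, a gene of neurite outgrowth, read 9.79 and 9.73 in the NSL1 arrays, 8.84 and 8.79 in the MOF+MSL1 arrays and 9.06 and 8.82 in the control arrays (0.94 (SE 0.067, adjusted p = 0.00051)). In both, MOF+MSL1 and control arrays overlapped or nearly so, and NSL1 arrays stood apart. Gpr50 (1.17), the hydrolase Nudt10 (0.92) and the glutamate receptor subunit Gria3 (0.89) completed the 5 most raised. Gpr50 and Gria3 averaged 5.75 and 5.95 in MOF+MSL1 and 5.80 and 5.39 in control arrays, so both entered only through their NSL1 values. Was, the actin regulator mutated in Wiskott-Aldrich syndrome, read 7.33 and 7.08 in the NSL1 arrays, 8.28 and 8.13 in the MOF+MSL1 arrays and 8.32 and 8.31 in the control arrays and differed by -0.999 (SE 0.072, adjusted p = 0.00051). Zc4h2, Atg4a, Rpgr and Gm9 (-0.70) were the other X-linked genes most lowered.

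Promoter sequence was compared as a description, using the RefSeq windows of GRCm38.p6 from 250 bases before to 50 after the annotated start. Of the 12418 genes 9902 had a window and 7941 had exactly 1, to which all shares refer. The letters CCGGAAG, the core of the ETS-factor site, counted on both strands, occurred in 24.9% of 1606 genes lower in NSL1, in 11.1% of 1067 genes higher, in 17.4% of 5268 with no call, and in 9.12% of all 22862 genes with 1 window. At 1.5-fold or more the shares were 18.8% of 154 lower and 4.81% of 104 higher genes, against 18.1% of all tested genes. CTACANNTC, a core of the ZNF143 and THAP11 site, occurred in 9.46% of lower, 4.87% of higher and 6.9% of all tested genes. The NRF1 letters TGCGCATGC occurred in 3.86% of lower and 3.37% of higher genes. The cyclic AMP element TGACGTCA occurred in 3.61% of lower and 2.91% of higher genes. The YY1 letters AAGATGGCG occurred in 3.92% of lower and 3.56% of higher genes, and the TATA box core TATAAA in 7.66% of lower and 7.03% of higher genes. Over all tested genes the NRF1, cyclic AMP, YY1 and TATA letters occurred in 3.24%, 3.29%, 3.45% and 7.08%. The shares of lower and higher genes were close to these. Over all 22862 genes with 1 window, tested or not, the NRF1, cyclic AMP, YY1 and ZNF143 letters occurred in 1.59%, 1.85%, 1.55% and 4.56%. The TATA letters were more frequent there than over all tested genes. Base composition moved with the classes, with a median GC content of 58.7% in lower and 64.7% in higher genes and a median of 18 and 24 CpG dinucleotides, and its part in the motif shares was not tested. Of 64 mitochondrial ribosomal genes 35.9% held the ETS letters and 12.5% the YY1 letters, against 18.1% and 3.45% of all tested genes. Each motif was searched on its own, so a window could count for several and overlapping matches were kept.

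6 windows are shown 5′ to 3′ on the strand of the gene, with matched motifs in capitals. They were chosen after their values were seen, to show what a motif-bearing lowered promoter and a raised promoter without these letters look like. Mrps21 (chr3:95871465-95871764, minus strand) encodes a small-subunit mitochondrial ribosomal protein that read 9.42 and 9.35 after NSL1 siRNA, against 10.34 and 9.90 after MOF+MSL1 siRNA, and its capitals are the ETS letters on the reverse strand. Mrps18a (chr17:46110754-46111053, plus strand), of the same ribosome, read 9.81 and 9.68 after NSL1 siRNA, against 10.22 and 10.18 after MOF+MSL1 siRNA and carries ETS and YY1 letters. Ift88 (chr14:57423821-57424120, plus strand), an IFT-B subunit that read 7.17 and 7.08 after NSL1 siRNA, against 7.57 and 7.61 after MOF+MSL1 siRNA, carries 2 ETS matches, and Nprl2 (chr9:107541959-107542258, plus strand) of GATOR1 carries 1. Tmem102 (chr11:69805575-69805874, minus strand), among the 12 most lowered genes, holds the ZNF143 and THAP11 letters. Irgm1 (chr11:48871371-48871670, minus strand), the gene with the largest positive NSL1 minus MOF+MSL1 difference, holds none of the 6 motifs.
Mrps21: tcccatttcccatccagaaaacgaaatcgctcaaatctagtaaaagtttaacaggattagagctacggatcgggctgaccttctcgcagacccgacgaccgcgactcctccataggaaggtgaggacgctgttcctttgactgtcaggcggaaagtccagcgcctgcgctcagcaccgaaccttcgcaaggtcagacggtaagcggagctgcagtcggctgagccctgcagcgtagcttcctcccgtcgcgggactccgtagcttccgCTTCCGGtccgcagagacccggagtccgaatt
Mrps18a: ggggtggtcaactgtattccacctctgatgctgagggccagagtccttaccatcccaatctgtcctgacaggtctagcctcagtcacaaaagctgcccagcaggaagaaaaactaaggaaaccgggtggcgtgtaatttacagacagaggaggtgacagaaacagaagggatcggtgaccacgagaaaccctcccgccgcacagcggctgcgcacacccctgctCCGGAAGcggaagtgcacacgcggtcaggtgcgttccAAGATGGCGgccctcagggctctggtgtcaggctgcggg
Ift88: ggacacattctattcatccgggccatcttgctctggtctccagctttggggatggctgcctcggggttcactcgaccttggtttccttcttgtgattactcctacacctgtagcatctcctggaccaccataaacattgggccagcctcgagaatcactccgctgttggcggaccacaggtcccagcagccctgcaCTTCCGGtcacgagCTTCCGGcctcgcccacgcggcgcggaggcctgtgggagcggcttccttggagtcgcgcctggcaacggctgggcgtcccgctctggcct
Nprl2: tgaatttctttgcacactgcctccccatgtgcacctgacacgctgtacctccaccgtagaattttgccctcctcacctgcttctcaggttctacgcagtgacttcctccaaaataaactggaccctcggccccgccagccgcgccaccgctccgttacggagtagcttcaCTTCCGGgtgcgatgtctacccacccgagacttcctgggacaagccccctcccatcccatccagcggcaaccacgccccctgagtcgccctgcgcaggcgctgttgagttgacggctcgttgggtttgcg
Tmem102: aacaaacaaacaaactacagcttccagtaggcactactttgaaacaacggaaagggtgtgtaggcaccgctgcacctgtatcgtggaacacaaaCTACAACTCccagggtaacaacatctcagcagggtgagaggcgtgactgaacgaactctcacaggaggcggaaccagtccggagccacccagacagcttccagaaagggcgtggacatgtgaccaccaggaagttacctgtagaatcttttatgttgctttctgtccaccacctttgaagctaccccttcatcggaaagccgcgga
Irgm1: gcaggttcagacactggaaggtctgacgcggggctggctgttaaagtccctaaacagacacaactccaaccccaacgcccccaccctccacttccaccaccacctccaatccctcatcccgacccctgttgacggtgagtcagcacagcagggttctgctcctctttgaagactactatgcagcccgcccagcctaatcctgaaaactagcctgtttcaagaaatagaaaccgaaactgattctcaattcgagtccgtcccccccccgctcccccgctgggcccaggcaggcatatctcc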

How the data were processed

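Transcripts of PGK12.1 ES cells were read on Affymetrix Mouse Gene arrays. The authors deposited log2 values per probeset, made with Affymetrix Expression Console and RMA per the submitters' processing notes; versions and genome build are not given in the sources used here. Experiments D and E were normalized apart from the rest of the series, so levels are compared within those 6 arrays in the main fit. Symbols came from the platform annotation (21789 probesets with 1 symbol, 1621 with several, 12146 with none), updated through RefSeq genes of GRCm38.p6 (21698 matched), which also gave chromosomes and promoter windows. limma 3.58.1 in R 4.3.3 was fitted to 14586 named probesets with a mean of at least 6 over the 4 knockdown arrays. The model held group and experiment letter as a block (2 residual and 5.03 prior degrees of freedom). P-values were two-sided and Benjamini-Hochberg adjusted over these probesets. The labels give the 3 arrays of a letter the same experiment number, which is where the pairing comes from. Deviations of same-letter arrays from their group means correlated at 0.242 to 0.274, and with 2 experiments the other pairing gives the same size with a negative sign by construction. The labels describe separate RNAi treatments of 1 line, so p-values measure the spread between these treatments. No array duplicated another.

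Genes in the text are Kat8, Msl1, Kansl1 and Nsl1, the 12 largest differences each way among called genes with the same sign in D and E, up to 5 per direction in each class from control and on the X chromosome, and from each list up to 4 called members with the smallest p and up to 2 not called with the highest level. A few others are named as chosen afterwards or as exceptions within a list. The members and the 32 lists were chosen with earlier results of these data known. Lists are described by counts and medians, without a set test. Alternatives covered the block, the arrays fitted, scaling, the level filter, the variance model, the probeset per gene, and removal of each array or experiment. On data simulated for NSL1 against MOF+MSL1 over 14586 probesets, all 50 probesets at each of -1, -0.5, 0.5 and 1 were recovered. Of 14386 unchanged probesets 10 were called. The simulation used independent noise of the fit's own variance and few changed probesets. It is a check of the fit, and does not measure power or false calls in these data. Arrays have no read depth, and their number limits the precision.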

Additional observations from a re-analysis of the deposited data

How the results depend on the processing

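Over 20 alternatives no result changed direction with a call. The count of genes differing between the knockdowns, 4164, stayed within 1.5 times under each setting that kept all arrays, for example 2783 with no level filter and 3341 with no replicate block. Without a single array it lay between 1916 and 4571, and in the fit of 27 arrays it was 1310 without experiment D and 1908 without experiment E. The NSL1 count against control lay between 3361 and 5441 without a single array. The MOF+MSL1 count against control, 834, was 391 with no replicate block, 9 with no filter (3505 genes at an unadjusted p under 0.05), 1489 with a trend and robust prior, 423 with array weights, 29 and 160 in the fit of 27 arrays without D or E, and between 0 and 994 without a single array.

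Calls and sizes of the targeted genes moved as follows. NSL1 minus MOF+MSL1 changed sign for Kansl1 probeset 10392010, which was not called, over single removals (-0.0227 to 0.285). Kansl1 probeset 10391990 lay between -0.418 and -0.28 for NSL1 minus MOF+MSL1 without a single array, and between -0.294 and -0.126 for NSL1 minus control, where -0.21 lost its call with no replicate block and with no filter. Probeset 10392010 gave 0.381 for NSL1 minus control without E in the 27-array fit, not called. For MOF+MSL1 minus control it lost its call at 0.407 (27 arrays), 0.449 (no filter, array weights), 0.372 and 0.404 (27 arrays without D or E). Over single removals it ran from 0.35 to 0.549, and the call was lost at 0.395 and 0.504 without MOF+MSL1 D or E and at 0.35 without control E. Nsl1 passed for NSL1 minus control at 0.155 (27 arrays), 0.183 (27 arrays without E) and within 0.0542 to 0.306 over removals (without control E), and for MOF+MSL1 minus control at 0.294 (27 arrays), 0.306 (mean of at least 7, trend and robust prior) and 0.43 (27 arrays without E). Kat8 for MOF+MSL1 minus control lay between -0.919 and -0.831 over removals and lost its call without either MOF+MSL1 array. Msl1 lay between -0.496 and -0.413 over removals, and lost its call at -0.442 and -0.467 without MOF+MSL1 D or E, at -0.455 with no filter, and at -0.435 and -0.481 in the 27-array fit without D or E. The gap between X-linked and autosomal medians was 0.0551 with 27 arrays, 0.0379 with no filter, 0.0733 with a mean of at least 7, 0.0556 and 0.0546 in the 27-array fit without D or E, and 0.0503 to 0.087 over removals.

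Of 62 named genes called between the knockdowns 47 kept their call under every alternative run. Of the other 15, Pde3b lost its call under 5 alternatives and Tst and Zfp931 under 4 each, and the cause was not tested. The median difference over all genes was -0.0192 as deposited, -0.0319 after centring, -0.013 after cyclic loess and -0.0187 after quantile normalization. With 2 arrays per group the spread of a gene rests mostly on the prior shared by all probesets.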

Other observations

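The third NSL1 array of the line, from experiment C, belongs to another normalization set and took no part in the comparison. Against the control array of its own experiment, all 12 genes most raised in NSL1 over MOF+MSL1 were above control on it, with a median of 0.835, and 11 of the 12 most lowered were below, with a median of -0.90. The exception was Gm7982 at 0.02. Irgm1 stood at 0.94, Gpnmb at 1.60, Tbc1d7 at -1.40 and Pcbd1 at -1.10 there. Over all 12418 genes 9236 had the sign of the NSL1 change in D and E, and of the called genes that also differed from control the share was 1302 of 1403 higher and 1904 of 1990 lower ones. All 21 p53 targets were of the same sign as in D and E (median 0.33), as were 28 of 31 intraflagellar transport genes (-0.38), 17 of 20 transition zone genes (-0.42), 67 of 77 mitochondrial ribosomal genes (-0.16) and 14 of 17 cholesterol genes (-0.25). The Kansl1 probeset 10391990 was at -0.31 and Nsl1 at 0.17.

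Arrays of the single knockdowns, each minus the control of its own experiment and again in other normalization sets, gave mixed values for the 10 genes named as lying on opposite sides of control, of which some went against the MOF+MSL1 arrays. Fstl1 stood at -0.21, -0.30 and -0.32 in MOF experiments 1 to 3, and at 0.06, -0.03 and 0.03 in MSL1 experiments A to C. Bloc1s3 stood at 0.17, 0.16 and 0.18 after MOF siRNA and at 0.13, 0.24 and 0.14 after MSL1 siRNA. Hesx1, higher in MOF+MSL1 arrays, stood at 0.23, 0.49 and 0.08 after MOF siRNA and at -0.25, -0.11 and -0.24 after MSL1 siRNA, and Capn5 at -0.06, 0.02 and -0.03 and at 0.08, 0.10 and 0.08. Of the 5 named genes lower in MOF+MSL1, 4, 3 and 5 were below control in MOF experiments 1 to 3 and 4, 5 and 4 in MSL1 experiments A to C. Of the 5 higher in MOF+MSL1, 4, 4 and 3 were above control after MOF siRNA and 4, 4 and 3 after MSL1 siRNA. Irgm1 stood at 0.27, -0.32 and -0.21 after MOF siRNA and at -0.30, -0.21 and -0.10 after MSL1 siRNA. Of the genes named as called in MOF+MSL1 only, 5 were lower there, and 2 of these 5 were below control in NSL1 experiment C, with Zfp931 at -0.62. Of the 5 higher there, 1 was above control in that experiment. Ucma stood at 0.03, -0.13 and 0.07 after MOF siRNA and at -0.03, 0.10 and 0.08 after MSL1 siRNA. Among genes lowered in NSL1, Tbc1d7 stood at -0.80, -0.94 and -0.87 after MOF siRNA and at 0.00, 0.18 and 0.01 after MSL1 siRNA, and Zc4h2 at -0.62, -0.72 and -0.75 and at 0.04, 0.03 and 0.04. Pcbd1 stood at -0.42, -0.45 and -0.62 after MOF siRNA and at 0.18, 0.14 and 0.36 after MSL1 siRNA. Kat8 itself stood at -1.37, -1.24 and -1.06 after MOF siRNA, against -0.87 in the MOF+MSL1 arrays. Msl1 stood at -0.83, -0.86 and -1.22 after MSL1 siRNA, against -0.45 in the MOF+MSL1 arrays. It stood at 0.27, 0.02 and 0.16 after MOF siRNA and at 0.32 in NSL1 experiment C. MOF experiments 1 and 2 had a second round of siRNA, so their dose and time differ from the comparison.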
